A study of Oryza sativa with 9 samples.

Results

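The 200 loci with the most counts in chilled wild-type rice shoots are described here. They were chosen from the 55801 loci of the count table as those with the highest mean CPM (a locus's share of a library's total count, scaled so that a mean of 5985 CPM is 0.598% of the counts) over the 3 wild-type (WT) libraries. Because WT values chose them, their WT levels and the comparisons of members with WT are given as a description, with no test. The comparison between the mutant groups uses no WT value for a locus's change and is the one that is tested. Longer transcripts collect more reads and transcript lengths were not used here, so the order of the loci is an order of counts and not of transcript numbers.

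As background, a green shoot spends much of its messenger RNA on photosynthesis. Rubisco, the enzyme that fixes carbon dioxide, has a small subunit encoded in the nucleus by a family of very similar genes, and its activity depends on the chaperone Rubisco activase. In the cold, plants also make transcripts for chaperones, osmolyte and polyamine enzymes, calcium signalling proteins and transcription factors, and the circadian clock changes many transcripts with the time of day.

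RNA was sequenced from whole shoots of ZH11 seedlings with 4 leaves after 2 d at 4 °C, in 3 groups of 3 libraries: WT, ossro1c and osdreb2b. All groups were chilled and no unchilled sample was analysed here, so a high level cannot be read as a response to cold. The labels give no allele, no line number, no way in which the mutants were made and no time of harvest, and nothing in them states that the replicates came from separate plants. The p-values may therefore reflect technical spread alone. Libraries held 58398026 to 69336224 counts. LOC_Os03g12820, the locus generally known as OsSRO1c, was itself a member at rank 30, although the reference gene table does not hold that name. Its level was 2078, 2024 and 2044 TMM-scaled CPM (CPM after edgeR's scaling between libraries) in the WT libraries and 379, 415 and 451 in the libraries labelled ossro1c. It was 129, 134 and 138 in those labelled osdreb2b. DREB2B (LOC_Os05g27930), an AP2/ERF transcription factor that was no member, was highest in the libraries labelled osdreb2b, at 311 ± 10.3 against 169 ± 3.42 in WT and 68.8 ± 9.96 under the ossro1c label (SD, n = 3). Each of these transcripts was lowest in the libraries labelled for the other gene, and LOC_Os03g12820 was also below WT in those labelled ossro1c. A mutation need not lower its own transcript, and whether the labels match the genotypes was not tested. Every direction below therefore belongs to the libraries that carry a label and not to a known loss of a gene. Fewer cells of a type and less RNA per cell cannot be told apart in these whole shoots.

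The 200 members held 25.33%, 25.42% and 25.19% of the counts of WT replicates 1 to 3, and the mean was 25.3% ± 0.12 (SD, n = 3). Between 28087 and 28223 loci had at least 1 count in a WT library. The members ranked 1 to 50 held 11.9% ± 0.07 of WT counts and the other 150 held 13.5% ± 0.07. The locus with the most counts took 0.598% ± 0.01 of the library, and the 10 highest took 3.94% ± 0.03. It took 929 to 939 loci to reach 50% of the counts of a WT library and 6491 to 6501 to reach 90%. The same members held 19.96% ± 0.67 of the counts in libraries labelled ossro1c and 21.9% ± 0.24 in those labelled osdreb2b. A smaller share in the mutants is what the choice by WT levels favours, so it is given as a value only.

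A measure that treats the groups alike is the share of counts in each library's own 200 highest loci. It was 25.33%, 25.43% and 25.19% in WT, 24.102%, 24.096% and 25.95% in the libraries labelled ossro1c, and 28.73%, 28.0% and 28.87% in those labelled osdreb2b. All osdreb2b libraries lay above all others, whereas ossro1c replicate 3 lay above WT and its own replicates 1 and 2 below it. The means of osdreb2b and ossro1c differed by 3.82 percentage points (two-sided exact permutation p = 0.1, adjusted p = 0.15 over 3 comparisons), those of osdreb2b and WT by 3.22 points (exact p = 0.1, adjusted p = 0.15) and those of ossro1c and WT by -0.6 points (exact p = 0.4, adjusted p = 0.4). The smallest p that 3 libraries against 3 can give is 0.1, so no such difference can pass 0.05. The number of loci that reach 50% of the counts was 835 to 870 in osdreb2b, 929 to 939 in WT and 996 to 1078 in ossro1c, with no overlap between the groups (exact permutation p = 0.1 and adjusted p = 0.1 for each of the 3 comparisons). By this measure every library labelled ossro1c spread its counts over more loci than WT, and every library labelled osdreb2b over fewer.

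**Figure D1:**
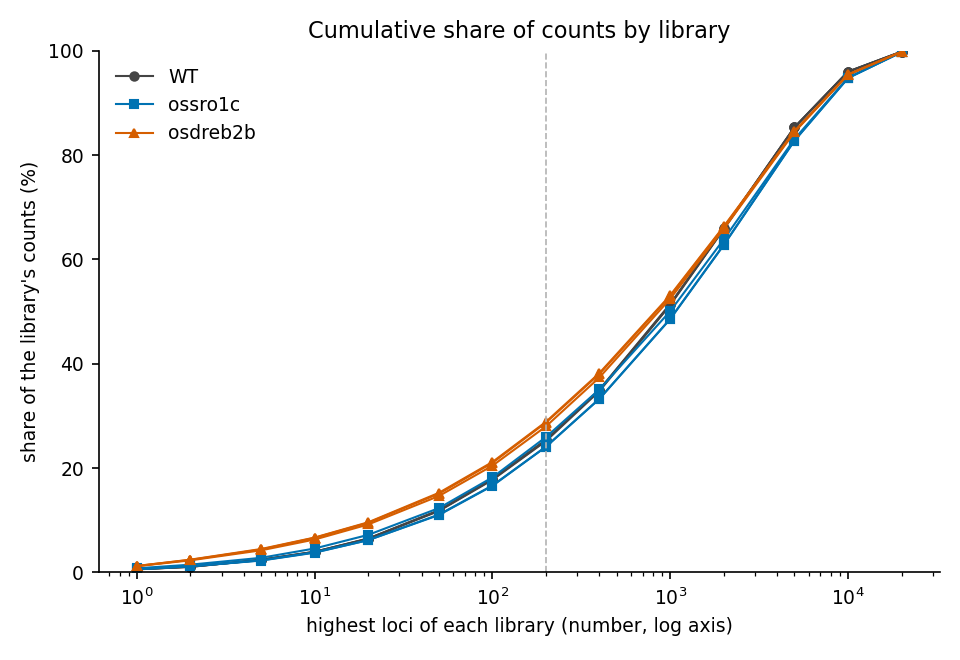
Share of a library's counts (percent, vertical axis) held by its own highest loci, against their number on a log axis, with 1 line per library coloured by group. At 200 loci, marked by the dashed line, the 3 osdreb2b libraries stand at 28.0% to 28.87% and the other 6 at 24.096% to 25.95%.

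The highest locus in WT was LOC_Os12g17600, RBCS-C, a small subunit gene of Rubisco, with a mean of 5985 CPM by library total. The next 3 were LOC_Os01g21250, LOC_Os05g41550 and LOC_Os02g32520, which is CLPD1, a chloroplast chaperone of the Clp family. LOC_Os01g19740 and LOC_Os01g50100 followed, then ALDP (LOC_Os11g07020), the chloroplast aldolase of the Calvin cycle. LOC_Os12g19381 came eighth. The reference table's entry RBCS1, a further small subunit gene, lies 0.038 Mb from the place expected for LOC_Os12g19381 and 0.099 Mb from that of LOC_Os12g19470, a member at rank 60, so the name was given to neither. The name RBCS-C is uncertain too. The lists of genes used below as role groups gave it to LOC_Os12g19470 and another small subunit name to LOC_Os12g17600. It is used here for LOC_Os12g17600, whose expected place lies 0.05 Mb from the table's entry of that name. The remaining loci of the 20 highest that carry a checked name were RAN2, a Ran GTPase of nuclear transport, UBQ3, a polyubiquitin gene, and GOS2, a translation initiation factor of the SUI1 type. Reads from near-identical genes such as the Rubisco small subunits could be split between copies by the counting, so the level of each copy is uncertain.

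Of the 200 members, 34 carry a name that was found in the reference table near the expected place, and the other 166 are given by identifier. The members lay on all 12 chromosomes, with 32 on chromosome 1 (16%, against 14.3% of the 26112 genes tested), 30 on chromosome 3 (15.0% against 12.7%) and 6 on chromosome 10 (3.0% against 5.39%). They included 5 pairs of loci whose numbers on a chromosome differ by at most 20, which makes them close neighbours. These pairs were LOC_Os03g20370 with CIPK31, LOC_Os04g12960 with LOC_Os04g12970, LOC_Os07g34570 with GOS2, CM-LOX1 with CM-LOX2, and LOC_Os09g00999 with LOC_Os09g01000.

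The choice depended little on any 1 WT library. Of the 200 members, 196 were among the 200 highest in every WT library taken alone, and leaving out 1 WT library kept 199 or 200 of them. The last loci inside were LOC_Os07g41694, LOC_Os06g14190 and LOC_Os01g73960, the last of these at 598.9 CPM by total, and the first outside was LOC_Os02g06592 at 597.6 CPM, followed by LOC_Os10g42710 at 588.9 and LOC_Os03g52840 at 588.0. The rank at which the members end is therefore a line through a continuous range. All 200 passed the filter on low counts.

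Members varied little among WT libraries and more in the mutants. The coefficient of variation (SD as a percentage of the mean of the 3 scaled CPM values) had a median over members of 1.63% in WT, 10.9% in libraries labelled ossro1c and 3.80% in those labelled osdreb2b. It was above 20% for 2 members in WT, 33 in ossro1c and 1 in osdreb2b. Of the ossro1c libraries, replicate 3 lay farthest from the middle value for 164 of the 200 members, being the highest for 98 and the lowest for 66. The largest variation in WT was at the neighbours LOC_Os09g01000, with 757, 1685 and 1363 scaled CPM, and LOC_Os09g00999, with 1013, 1725 and 1227. Replicate 2 was highest and replicate 1 lowest at both of these loci. The next most variable member in WT was LOC_Os12g19381, at 3700, 3458 and 3159.

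Between the mutant groups, most members differed, about as many in one direction as in the other. In the edgeR quasi-likelihood test, 161 of the 200 members passed an adjusted p of 0.05, with 80 higher and 81 lower in libraries labelled osdreb2b than in those labelled ossro1c. Over all 26112 genes tested, 46.5% passed (22.9% higher and 23.6% lower), against 80.5% of the members. The 200 loci ranked next, 201 to 400 in WT, gave 79.5%, so the share is not particular to the 200 highest, which like them have high counts. At least 1 on the log2 scale and past the threshold were 27 higher and 33 lower members, 30.0% of them, against 20.9% of all genes tested (9.71% higher and 11.1% lower) and 27.0% of the next 200. The 3 libraries of one mutant did not overlap with those of the other for 160 members and for 54.9% of all genes tested. The median log2 change of the members was 0.03, with quartiles at -0.65 and 0.59, and that of all genes was -0.02. Among the members ranked 1 to 50 the median was -0.38, with 17 higher and 26 lower, and in the other 3 bands of 50 ranks it lay between 0.02 and 0.16. The spread in this fit is shared by all 9 libraries, and WT varies least. With only the 6 mutant libraries in the fit, 148 members passed. The share of all genes was not taken in that fit, so this count has no background beside it. Raw library totals in place of TMM turned the split to 60 higher and 93 lower, a scaling that moved the median of all genes by -0.18.

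**Figure D2:**
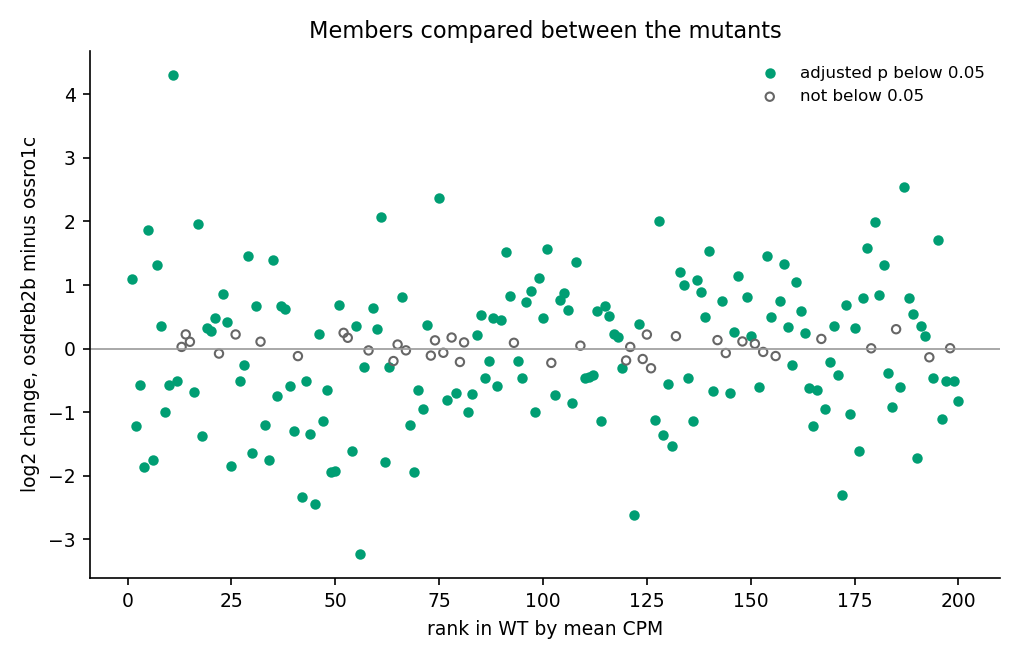
Log2 change between libraries labelled osdreb2b and ossro1c (vertical axis) of each of the 200 members, against its rank in WT (horizontal axis). Filled points passed an adjusted p of 0.05, 80 above 0 and 81 below it, and open points did not; the highest point is LOC_Os07g34570.

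The largest difference between the mutant groups was at LOC_Os07g34570, at rank 11 in WT. It stood at 498, 508 and 783 scaled CPM in the libraries labelled ossro1c and at 11850, 11220 and 12360 in those labelled osdreb2b, with 3078, 3005 and 2907 in WT. The mutant groups lay on either side of WT and did not overlap. Its log2 change between the mutant groups was 4.31 (SE 0.16, adjusted p = 2.1e-10, edgeR), a 19.8-fold difference. By rank it moved from 11 in WT to 176 under the ossro1c label and to 2 under the osdreb2b label. Its neighbour GOS2 differed by 0.32 (SE 0.10, adjusted p = 0.023), a call that was lost under raw totals, under a filter of at least 1 CPM in 3 libraries, with only the 6 mutant libraries, without ossro1c replicate 1 or 2, and without any 1 of the osdreb2b libraries.

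Of the 20 highest loci of WT, 17 passed between the mutant groups, 8 higher and 9 lower in libraries labelled osdreb2b. That is 85.0%, beside 80.5% of all members, 79.5% of the loci ranked 201 to 400 and 46.5% of all genes tested. LOC_Os01g21250, the second locus of WT, stood at 5403, 5482 and 5328 scaled CPM in WT, 2999, 2891 and 4450 in ossro1c and 1566, 1404 and 1460 in osdreb2b. The groups did not overlap, ossro1c replicate 3 lay nearest to WT, and the mutant groups differed by -1.22 (SE 0.13, adjusted p = 3.6e-06, edgeR). LOC_Os01g50100 differed by -1.76, LOC_Os05g41900 by -1.37, LOC_Os02g39790 by -0.99, LOC_Os01g15270 by -0.58 and LOC_Os07g09340 by -0.50. LOC_Os05g41550, the third locus of WT at 5173 ± 59.5 there, differed by -0.57 (SE 0.21, adjusted p = 0.048), a call that was lost without the filter on low counts, with only the 6 mutant libraries, and without any 1 of the 9 libraries except ossro1c replicate 3. Its mutant groups overlapped, at 1341, 1206 and 668 in ossro1c and 723, 773 and 673 in osdreb2b. There ossro1c replicate 3 lay below every osdreb2b library. LOC_Os12g19381 was higher by 0.36, with an adjusted p of 0.053 under raw totals. LOC_Os06g51220 was higher by 0.28 (SE 0.10, adjusted p = 0.036), a call that was lost under raw totals, upper-quartile factors or the CPM filter, with only the 6 mutant libraries, and without any 1 library except ossro1c replicate 3. Its mutant groups overlapped too, at 2018, 1940 and 2677 in ossro1c and 2709, 2785 and 2570 in osdreb2b. LOC_Os03g05390 and LOC_Os04g58710 did not pass, at 0.03 and 0.22.

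The next highest differences were those of LOC_Os11g13890 (log2 change 2.54, SE 0.12, adjusted p = 8.7e-10, edgeR), of PRR95, a pseudo-response regulator of the circadian clock, and of LOC_Os07g43810 (2.07, SE 0.10, adjusted p = 1.5e-09). PRR95 stood at 503, 526 and 435 scaled CPM in ossro1c and 2470, 2553 and 2567 in osdreb2b, a log2 change of 2.37 (SE 0.08, adjusted p = 4.2e-11). LOC_Os02g32030, LOC_Os12g41715, LOC_Os03g46770 and LOC_Os01g19740 followed, with log2 changes of 2.01, 1.99, 1.95 and 1.86. LOC_Os01g19740, the fifth locus of WT, stood at 1477, 1483 and 2208 under the ossro1c label and 6306, 6100 and 6407 under the osdreb2b label.

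At the other end, LOC_Os11g12650 was lower in osdreb2b than in ossro1c by a log2 change of -3.23 (SE 0.10, adjusted p = 1.9e-11, edgeR). It stood at 150, 157 and 123 scaled CPM under the ossro1c label and 14.3, 16.2 and 15.4 under the osdreb2b label, against 1603, 1582 and 1612 in WT. Both mutant groups lay far below WT at this locus. LOC_Os02g41820 differed by -2.62, LOC_Os03g42464 by -2.45 and LOC_Os02g08330 by -2.33. The other 4 of the 8 lowest were WRKY71 at -2.30, LOC_Os04g12970 at -1.94, LOC_Os12g29400 at -1.94 and NAC6 at -1.93. In LOC_Os03g42464 the ossro1c libraries spread from 157 in replicate 3 to 347 in replicate 1, and its SE of 0.25 was the largest of these 8.

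The counts by role that follow stand beside 80.5% of all members and 46.5% of all genes tested that passed between the mutant groups. The named members were added after their values were seen, so these counts describe the named loci and not a role. Of the 5 named members of photosynthesis and photorespiration, 4 were higher in libraries labelled osdreb2b than in those labelled ossro1c. None of them was lower, and 1 did not pass. RBCS-C stood at 6795, 6661 and 6525 scaled CPM in WT, 5103, 4923 and 7259 in ossro1c, and 12480, 12030 and 12530 in osdreb2b. The osdreb2b libraries were the highest, and ossro1c replicate 3 lay above WT while replicates 1 and 2 lay below it. Its log2 change between the mutant groups was 1.10 (SE 0.12, adjusted p = 3.3e-06, edgeR). ALDP differed by 1.31 (SE 0.07, adjusted p = 2.4e-09), from 2618 ± 185 to 6492 ± 236. Rubisco activase (rca), which restores blocked Rubisco, stood at 1584, 1549 and 1496 in WT, at 3135, 3062 and 3157 in ossro1c and at 5075, 4580 and 4897 in osdreb2b. Its 3 groups did not overlap, and the mutant groups differed by 0.64 (SE 0.06, adjusted p = 1.4e-06). The Rieske iron-sulphur protein of the cytochrome b6f complex (petC) differed by 0.38 (SE 0.08, adjusted p = 0.00096). Glycolate oxidase GLO1, an enzyme of photorespiration, differed by -0.05 (SE 0.07, adjusted p = 0.57) and did not pass.

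Photosynthetic genes with a checked name that were no members, from the lists used as role groups, went in both directions. The list of carbon fixation and photorespiration had 5 loci with a checked name, 4 of them members. The 3 that passed higher between the mutant groups, RBCS-C, ALDP and rca, are members already given above. Its only non-member was GLO5, another glycolate oxidase, at rank 468 in WT, which was lower by -0.78. The list of photosystem and electron transport genes had 3 loci with a checked name, 2 of which passed higher and 1 lower in osdreb2b than in ossro1c. PSAH, a photosystem I subunit, differed by 1.37 and PETE, plastocyanin, by 0.80, whereas LFNR1, a leaf ferredoxin-NADP reductase, differed by -0.24 (SE 0.07, adjusted p = 0.015, edgeR). CAB2R, the 1 antenna gene with a checked name, was at rank 2327 in WT with 104 ± 4.79 scaled CPM and entered the 200 highest of osdreb2b at rank 17 with 2563 ± 201, against 105 ± 29.7 in ossro1c (log2 change 4.61, SE 0.17, adjusted p = 4e-10, edgeR). As a check of the labelled tissue, the root marker LSI1, a silicon channel, was at rank 16048 in WT, with 2.42 ± 0.347 scaled CPM there, 17.5 ± 2.04 in ossro1c and 10.2 ± 1.67 in osdreb2b. It was the 1 root marker of 3 that had a checked name and passed the filter on low counts, and its part in the differences between groups was not tested.

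Among the 6 members of nitrogen assimilation, amino acid and polyamine synthesis, 4 were higher in osdreb2b than in ossro1c, 1 was lower and 1 did not pass. The chloroplast glutamine synthetase GS2 differed by 0.49 (SE 0.08, adjusted p = 0.00022, edgeR) and the ferredoxin-dependent glutamate synthase GLU by 0.48 (SE 0.14, adjusted p = 0.012); these enzymes work in sequence. GLU stood at 1911, 1944 and 1191 in ossro1c, where replicate 3 lay at the WT level of 1181 to 1201, and its call was lost under raw totals and with only the 6 mutant libraries. Polyamine synthesis was represented by arginine decarboxylase ADC1, with a change of 0.73 (SE 0.09, adjusted p = 1.2e-05), and S-adenosylmethionine decarboxylase SAMDC, with 0.91 (SE 0.07, adjusted p = 2.6e-07). ADC1 lay below WT in both mutant groups, at 1090 ± 27.3 scaled CPM in WT, 456 ± 47.7 in ossro1c and 755 ± 73.5 in osdreb2b. SAMDC stood at 1090 ± 39.8 in WT, 980 ± 96.8 in ossro1c and 1842 ± 43.4 in osdreb2b. SAM2, which makes the S-adenosylmethionine that SAMDC uses, was lower. It stood at 903, 895 and 898 scaled CPM in WT, at 1762, 1652 and 2008 in ossro1c and at 620, 596 and 651 in osdreb2b, a change of -1.54 (SE 0.08, adjusted p = 1.9e-09). A further member on the list of methionine and polyamine genes, LOC_Os02g39790, has no checked name and was also lower, by -0.99 (SE 0.07, adjusted p = 3.2e-08). It stood at 3313 ± 136 in WT, the ninth locus there, and at 2187 in ossro1c and 1101 in osdreb2b. DAHPS2, of the entry step of the shikimate pathway, differed by 0.06 (SE 0.06, adjusted p = 0.42).

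The 3 members of protein synthesis and turnover were among the 20 highest loci of WT. CLPD1 stood at 4836, 4806 and 4896 scaled CPM in WT, 1370, 1327 and 1102 in ossro1c and 341, 368 and 338 in osdreb2b. The groups did not overlap, and the mutant groups differed by -1.86 (SE 0.08, adjusted p = 6.3e-10, edgeR). UBQ3 differed by -0.68 (SE 0.07, adjusted p = 2.2e-06), from 2048 ± 174 to 1282 ± 31.5. GOS2, given above, was the 1 of the 3 that was higher. It lay below WT in both mutant groups, at 2605 ± 52.8 in WT, 1247 ± 246 in ossro1c and 1554 ± 14.6 in osdreb2b.

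Of the 6 named transcription and clock regulators, 3 were higher in osdreb2b and 3 lower. WRKY71, a WRKY factor, stood at 735, 728 and 725 scaled CPM in WT, 1544, 1437 and 1719 in ossro1c and 324, 299 and 330 in osdreb2b, a change of -2.30 between the mutant groups (SE 0.08, adjusted p = 6.1e-11, edgeR). It lay above WT in one mutant group and below it in the other. NAC6, a NAC factor of stress responses, stood at 998, 978 and 1086 in ossro1c and 287, 254 and 264 in osdreb2b, a change of -1.93 (SE 0.07, adjusted p = 1.2e-10). The heat shock factor HSFA3 differed by -0.91 (SE 0.06, adjusted p = 6.2e-08). RSR1, an AP2 factor known for its part in starch synthesis, was higher by 0.89 (SE 0.07, adjusted p = 1.1e-07), and PRR95 was described above. GIGANTEA (GI), a clock and flowering protein, passed narrowly with 0.21 (SE 0.07, adjusted p = 0.032), and its call was lost in most alternative fits, with an adjusted p of 0.8 under raw totals, 0.055 to 0.058 without any 1 WT library and 0.1 and 0.069 without osdreb2b replicates 2 and 3. The time of harvest was not in the labels, so its part in the levels of the clock genes was not tested.

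Of the 5 signalling members, 1 was higher, 1 was lower and 3 did not pass. CIPK31, a kinase activated by calcium sensors, was higher by 0.67 (SE 0.06, adjusted p = 1.1e-06, edgeR), and its neighbour LOC_Os03g20370 was lower by -1.03 (SE 0.13, adjusted p = 1.3e-05). Of the 14-3-3 proteins, which bind phosphorylated partners, GF14F was lower by -0.42 (SE 0.07, adjusted p = 0.00028) and GF14C differed by 0.09 (SE 0.10, adjusted p = 0.48). The calcium-dependent kinase CPK13 (0.11, SE 0.10) and RAN2 (0.11, SE 0.09) did not pass.

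Of the 5 members of general metabolism, 1 was higher, 3 were lower and 1 did not pass. G6PGH1, a 6-phosphogluconate dehydrogenase of the oxidative pentose phosphate pathway, stood at 220, 223 and 259 scaled CPM in ossro1c and 524, 488 and 510 in osdreb2b (log2 change 1.12, SE 0.07, adjusted p = 3.1e-08, edgeR). Both mutant groups lay below WT at G6PGH1, since the lowest WT mean of these 5 members was 1044. RINO1, which makes inositol phosphate for inositol and raffinose sugars, was lower by -1.75 (SE 0.07, adjusted p = 1.6e-10), from 869 ± 39.6 to 259 ± 12.3. ME6, an NADP-malic enzyme, differed by -0.996 (SE 0.09, adjusted p = 5.4e-07) and RIBA2, of riboflavin synthesis, by -0.73 (SE 0.09, adjusted p = 1.9e-05). The h-type thioredoxin TRXH differed by 0.10 (SE 0.12, adjusted p = 0.52).

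Among the 4 members of lipid oxidation and membrane transport, 1 was higher and 3 were lower in osdreb2b than in ossro1c. The neighbouring lipoxygenases CM-LOX1 and CM-LOX2, which oxidise polyunsaturated fatty acids, differed by -0.94 (SE 0.07, adjusted p = 5.6e-08, edgeR) and -0.67 (SE 0.09, adjusted p = 2.5e-05). CM-LOX2 stood at 867, 843 and 867 scaled CPM in WT, 90.9, 103 and 105 in ossro1c and 55.4, 69.5 and 63.2 in osdreb2b. Both mutant groups were far below WT, and reads could be shared between these similar neighbours. The ABC transporter ABCG36 differed by -1.20 (SE 0.13, adjusted p = 4.3e-06), and a7, a plasma membrane proton pump, by 0.82 (SE 0.06, adjusted p = 7.6e-08). Over all 34 named members, 15 were higher, 13 were lower and 6 did not pass, beside 80, 81 and 39 of all 200 members.

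A further 22 members are on the lists of genes used as role groups, but their names could not be checked, so they are given by identifier alone. Between the mutant groups 17 of them were higher in osdreb2b, 4 were lower and 1 did not pass. Among all 200 members 80 were higher and 81 lower, and among all genes tested 22.9% and 23.6%. The lists were chosen with earlier results of these data known, so this split describes the listed loci only. The 4 lower ones were LOC_Os03g12820 at -1.63 and LOC_Os03g20370, LOC_Os02g39790 and LOC_Os07g09340, given above. Among the higher ones, LOC_Os11g06720 differed between the mutant groups by 1.54 (SE 0.11, adjusted p = 9.4e-08, edgeR), LOC_Os12g43600 by 1.40, LOC_Os01g31690 by 1.33 and LOC_Os08g10020 by 1.21. LOC_Os03g03910 differed by 0.52, LOC_Os08g03290 by 0.51, LOC_Os05g03860 by 0.48 and LOC_Os02g06640 by 0.34, the last of which was lost under raw totals (adjusted p = 0.083). LOC_Os06g46770 differed by 0.17 (SE 0.10, adjusted p = 0.16) and did not pass.

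**Figure D3:**
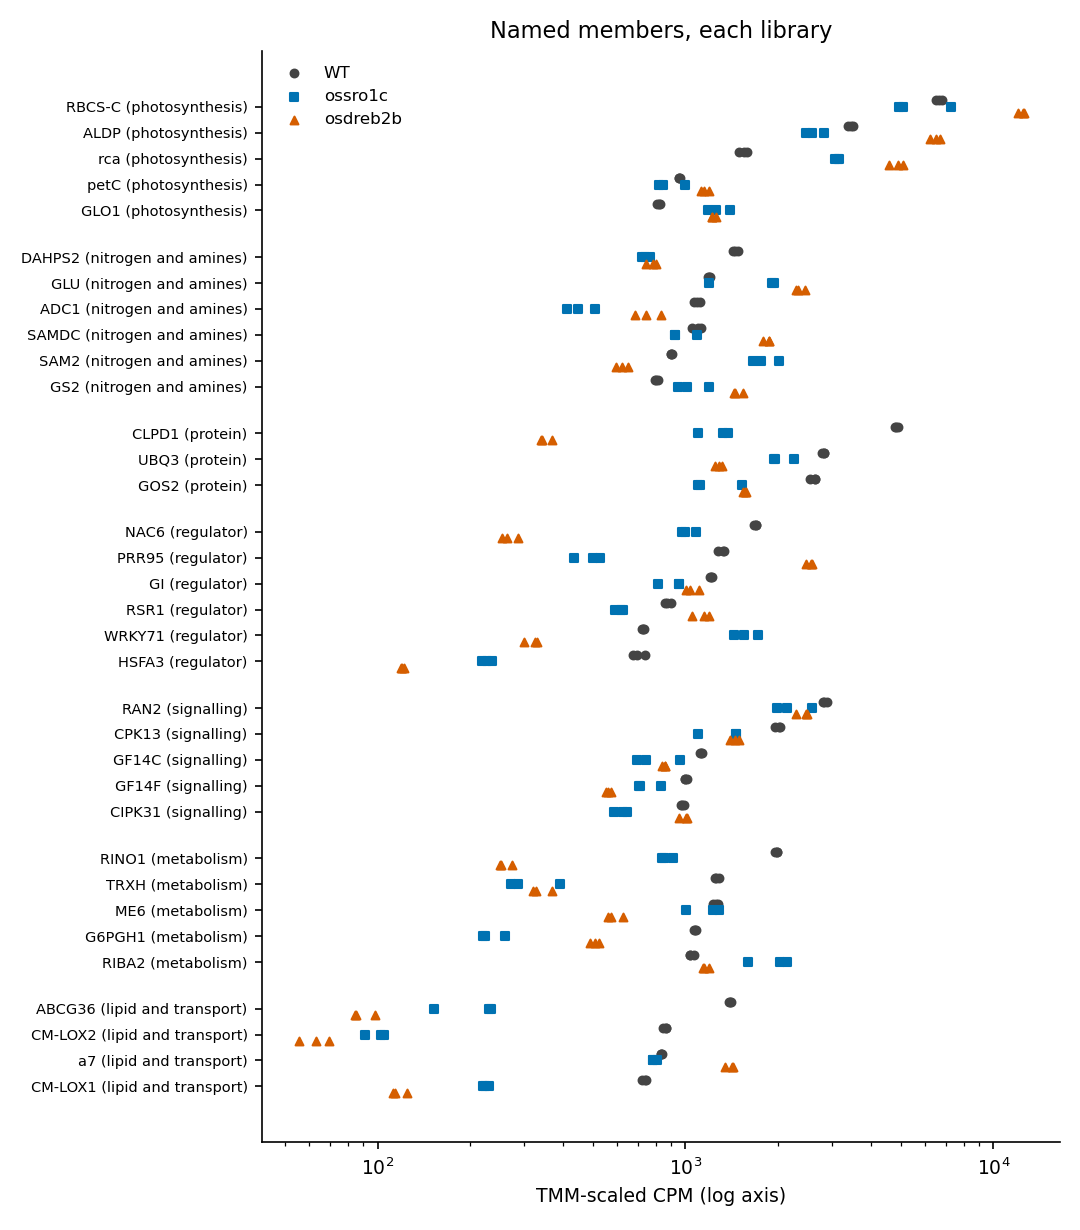
TMM-scaled CPM on a log axis of the 34 named members in each of the 9 libraries, grouped by role, with 1 point per library (dark circles WT, blue squares ossro1c, orange triangles osdreb2b). The mean of CLPD1 is 4846 in WT, 1266 in ossro1c and 349 in osdreb2b, and that of rca is 1543, 3118 and 4851.

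Set against WT, most members had lower values in each mutant group, which the choice of loci by their WT level favours. Counting only the side on which the fitted log2 change lay, 34 members were above WT and 166 below it in libraries labelled ossro1c, where 49.8% of all genes tested lay above and 50.1% below. The median log2 change was -0.82. In libraries labelled osdreb2b, 50 were above and 150 below, beside 51.1% and 48.8% of all genes tested, and the median was -0.79. Loci ranked 201 to 400 in WT had medians of -0.90 and -0.83. The loci chosen from the other side leaned the other way, though by less in ossro1c. Of ossro1c's own 200 highest, 112 lay above and 88 below WT in ossro1c, with a median of 0.17. Of osdreb2b's own 200 highest, 146 lay above and 54 below WT in osdreb2b, with a median of 0.75. Both comparisons share the WT libraries, and nothing is read from their counts.

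The members farthest below WT kept a small part of their WT level in the mutants. LOC_Os04g12970, at rank 69 in WT with 1405, 1388 and 1369 scaled CPM, stood at 31.7, 29.0 and 31.7 in ossro1c and at 7.91, 8.18 and 7.99 in osdreb2b, log2 changes of -5.49 and -7.43. Its neighbour LOC_Os04g12960 stood at 1853 ± 19.1 in WT, 481 ± 27.2 in ossro1c and 197 ± 10.7 in osdreb2b. LOC_Os02g08330, at rank 42, went from 1776 ± 21.4 to 64.2 ± 15.9 and 12.8 ± 1.93, and LOC_Os06g39240 from 685 ± 21.4 to 19.1 ± 5.25 and 13.8 ± 1.31. LOC_Os11g41820, LOC_Os01g69850 and LOC_Os11g12650 completed the 6 lowest in ossro1c, at -4.59, -4.21 and -3.48. In osdreb2b the 6 lowest were LOC_Os04g12970, LOC_Os02g08330 at -7.12, LOC_Os11g12650 at -6.71, LOC_Os02g41820 at -6.01, LOC_Os06g39240 at -5.63 and LOC_Os11g41820 at -5.20.

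Some members stood higher than in WT. The 6 highest in ossro1c were WRKY71 at 1.10, LOC_Os08g39300 at 1.10, rca at 1.01, SAM2 at 1.01, LOC_Os02g41650 at 1.004 and RIBA2 at 0.88 on the log2 scale. The 6 highest in osdreb2b were LOC_Os07g34570 at 1.98, rca at 1.65, LOC_Os11g13890 at 1.65, LOC_Os04g38600 at 1.54, LOC_Os11g01530 at 1.48 and LOC_Os07g43810 at 1.39. LOC_Os12g19381, eighth in WT, was at 5687 ± 559 in ossro1c and 7298 ± 333 in osdreb2b against 3439 ± 271 in WT, and it took the highest place in ossro1c replicates 1 and 2. In ossro1c replicate 3 and in all WT and osdreb2b libraries that place belonged to RBCS-C.

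In ranks, 115 of the 200 members were also among the 200 highest loci of ossro1c (57.5%) and 103 among those of osdreb2b (51.5%), while the mutants shared 127 loci with each other (63.5%). Of the members, 93 were in the lists of both mutants and 75 in neither. The median rank of a member was 147 in ossro1c and 194 in osdreb2b. A further 65 members ranked from 201 to 1000 in ossro1c, 17 from 1001 to 5000 and 3 beyond 5000, and in osdreb2b these numbers were 69, 20 and 8. The lowest ranks were 7732, of LOC_Os06g39240 in ossro1c, and 11656, of LOC_Os04g12970 in osdreb2b. Loci that took their places included LOC_Os03g16700, at rank 26 in ossro1c, and LOC_Os03g39610, at rank 7 in osdreb2b with 4355 ± 241 scaled CPM against 577 ± 29.1 in WT and 224 ± 50.3 in ossro1c.

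**Figure D4:**
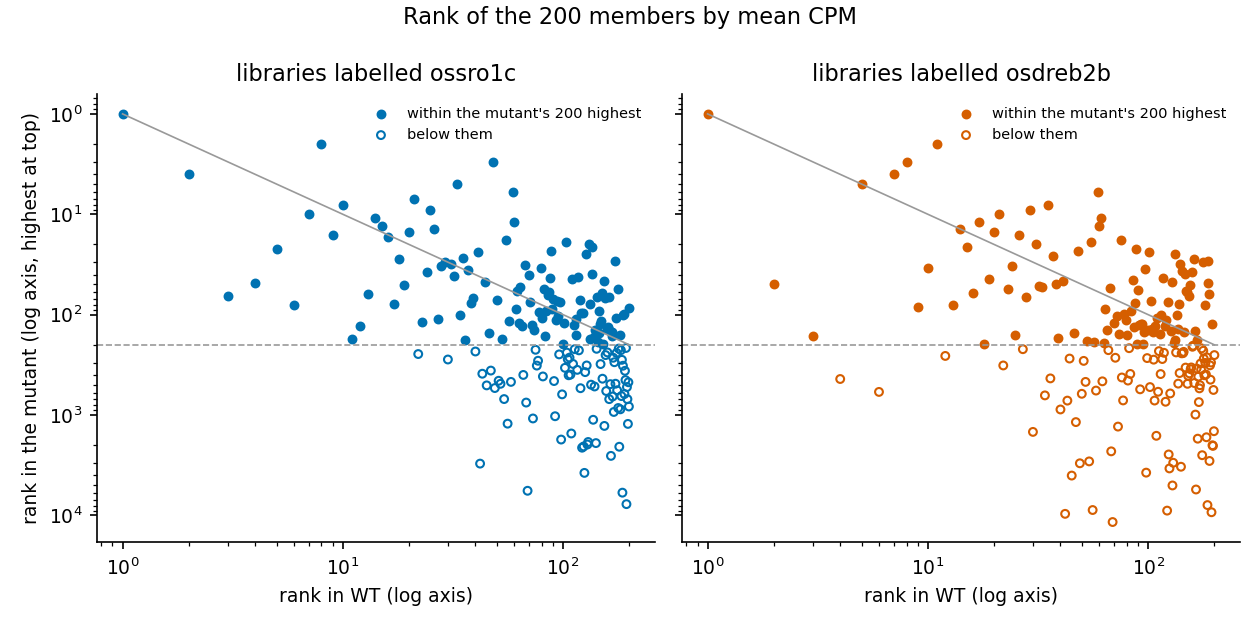
Rank of each of the 200 members in libraries labelled ossro1c (left) and osdreb2b (right) against its rank in WT, all by mean CPM on log axes with the highest rank at the top. Points on the solid line kept their rank, and those under the dashed line left the mutant's 200 highest loci, 85 members in ossro1c and 97 in osdreb2b.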

How the data were processed

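RNA from 9 chilled rice shoot samples had been sequenced, from TRIzol extracts and SMARTER mRNA libraries per the labels. The authors deposited 1 table of raw counts of reads at each locus, with 1 column per library and no normalisation, and 0 columns were left unused. DESeq2, StringTie 2.1.4, HISAT2 2.2.1 and fastp 0.23.4 are named in the submitters' processing notes, without a role or order, and the build, annotation and strand setting were not given in the sources used here. Library totals ran from 58398026 to 69336224 counts. The counting error (100 over the square root of the mean count) of a member had a median of 0.404% in WT, 0.459% in ossro1c and 0.499% in osdreb2b and reached 4.39% in osdreb2b; it was above the spread between libraries for 5, 1 and 4 members.

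Members were the 200 highest loci by mean of count divided by library total over WT. Counts passing edgeR's filterByExpr (26112 of 55801 loci) were TMM-scaled and fitted over all 9 libraries with 1 coefficient per group (edgeR 4.0.16, R 4.3.3, robust quasi-likelihood). All p-values across genes were adjusted by the Benjamini-Hochberg method over these 26112 loci, with a threshold of 0.05. The SE is the absolute log2 change divided by the square root of F. Shares of counts were compared by two-sided exact permutation tests. The fit was also run on simulated counts with known changes. Few genes changed there and the spread was the same in all groups, unlike in these data, so nothing is read from that run. Alternatives were other scalings, filters, DESeq2 1.42.0, other samples in the fit, each library left out, a replicate block and other choices of members.

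The members and lists were chosen with earlier results of these data known. Loci described singly are the 20 highest in WT; the 8 highest and 8 lowest changes between mutants, past the threshold with groups apart; the 6 highest and 6 lowest of each mutant against WT; up to 4 per list; 3 on each side of the last rank; and the 3 most variable in WT. All 34 named members were added after their values were seen.

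The count table holds no gene names. Names come from general knowledge and were looked up in a rice gene table (assembly ASM3414082v1) that holds no LOC_Os identifiers. A name was used where the table has it once on the chromosome that the identifier gives, within 0.5 Mb of the place interpolated from other such pairs. Names were dropped singly from that interpolation until all those left lay near their places. An entry claimed by several loci was kept only where exactly 1 of them was named outside the role lists. Of 199 names looked up, 111 were found once after shared entries were settled, and 109 lay within 0.5 Mb (median 0.035 Mb, at most 0.339 Mb for members). The member names were proposed with nearby entries of the table in view and the distance was set after the distances were seen, so this check is not independent of the names.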

Additional observations from a re-analysis of the deposited data

How the results depend on the processing

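The share of members called between osdreb2b and ossro1c stayed within 1.5 times its value under every alternative run. The share of all genes was not taken in the alternative fits, so the counts of those fits cannot be set against a background. The number of the 200 called ran from 148 to 161 over the fits and from 146 to 181 with 1 library left out; without ossro1c replicate 3, 181 passed and all 161 remained. In the main fit, 80 of the 100 highest loci and 320 of the 400 highest passed. That is 80.0% of each, beside 46.5% of all genes tested.

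Medians moved with the scaling. Raw totals shift the median of all genes by -0.18 between the mutants, 0.32 for ossro1c and 0.14 for osdreb2b against WT. The members' median between the mutants was -0.15 under raw totals, -0.019 under upper-quartile factors, -0.056 with at least 1 CPM in 3 libraries, -0.0064 with 6 libraries and -0.071 for the 100 highest loci, so its sign is not settled; with 1 library left out it was 0.01 to 0.05. For ossro1c it was -0.50 under raw totals, -0.66 under upper-quartile factors, -0.73 with the CPM filter, -0.72 with 6 libraries, -0.88 for the 400 highest loci and -0.85 to -0.82 with 1 library left out. For osdreb2b it was -0.65 under raw totals, -0.67 under upper-quartile factors, -0.83 for the 100 highest loci and -0.79 to -0.75 with 1 library left out.

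Members held 17.8% of WT counts as the 100 highest loci, 34.9% as the 400 highest, 24.9% with the highest locus taken out and 25.3% to 25.4% with 1 library left out. Own 100 and own 400 highest loci held 17.8% and 34.9% in WT, 17.2% and 33.9% in ossro1c, and 20.9% and 37.9% in osdreb2b. With 1 library left out, the own 200 held 25.3% to 25.4%, 24.099% to 25.024% and 28.4% to 28.8%. Members among a mutant's own 200 highest were 114 to 115 and 102 to 103.

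Single members were read from the same fits, an alternative chosen after seeing the data. Of 81 described or named members, 68 passed between the mutants, beside 80.5% of all 200 members and 46.5% of all genes tested. Some of the 81 were chosen because they passed this comparison, and the named ones after their values were seen. The count therefore describes these loci only. Of the 68, 8 lost the call in at least 1 fit and 0 turned sign. LOC_Os03g05390, which had not passed, turned sign and passed under raw totals (-0.15). For ossro1c against WT the sign of the change turned under raw totals for LOC_Os01g09320 (0.23), LOC_Os03g03910 (0.16, and 0.0037 under upper-quartile factors), LOC_Os04g42090 (0.17), LOC_Os07g37030 (0.21) and LOC_Os04g56160 (0.24). Raw totals moved the median of all genes by 0.32 in this comparison, and the cause of the turned signs was not tested.

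Replicate numbers are shared between groups, but same-numbered libraries did not deviate together (correlations -0.013 to 0.088 over 9 pairs, none above 0.1; 7 of 18 correlated best with their own number). With a replicate block, 160 members passed between the mutants.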
